A study of Mus musculus with 12 samples.

Results

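The conjugating (phase II) enzymes described here were all genes of the table whose symbols name a glutathione S-transferase (GST, including the membrane-bound microsomal forms Mgst), a UDP-glucuronosyltransferase of families 1 to 3 (UGT) or a sulfotransferase of families 1 to 5 (SULT). The rule reads the symbol and uses no measured value, and it gave 65 of 48537 genes: 25 GST, 21 UGT and 19 SULT genes. RNA-seq was made from whole mouse liver collected at zeitgeber time 10 (hours counted from lights on), with 4 livers in each of 3 groups. Re-expression livers carry the REV-ERB double knockout and REV-ERBalpha-WT by their titles, livers labelled DKO carry the REV-ERBs double knockout and YFP, and control livers have the genotype wildtype and YFP. The deposited column names were YFP_WT, YFP_Cre and YFP for these groups. Cre is thus named for the livers labelled DKO and not for re-expression or control livers. The part of Cre in any difference from control livers cannot be told apart from the knockout. How Cre and the re-expressed receptor reached the liver, the cells that received them, and the strain, sex and age of the mice were not given in the labels used here.

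Conjugating enzymes attach a large polar group to drugs, pollutants, hormones, bilirubin and the products of lipid peroxidation, so that transporters can pass them into bile or urine. GST enzymes add the tripeptide glutathione to reactive electrophiles, UGT enzymes add glucuronic acid from UDP-glucuronate in the endoplasmic reticulum, and SULT enzymes add sulfate from the donor PAPS in the cytosol. The liver is a main site of all 3 reactions, and the genes are known targets of the xenobiotic receptors CAR and PXR (Nr1i3 and Nr1i2), of the oxidative stress factor NRF2 (Nfe2l2) and of the clock output factors DBP, TEF and HLF. The REV-ERB receptors, REV-ERBalpha (Nr1d1) and REV-ERBbeta (Nr1d2), are repressors of the circadian clock.

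Values are the deposited TPM, read counts divided by gene length and scaled so that each library sums to the same total. Each library held between 5621667 and 6906221 reads, recovered from the TPM steps. Differences were tested with limma on log2(TPM + 1) over the 17957 genes with a mean of at least 1 TPM. A gene is said to have been called where its Benjamini-Hochberg adjusted p over all those genes was under 0.05. The p-values set the difference between group means against the spread between livers. Nr1d1 had 171, 203, 174 and 217 TPM in re-expression livers, 78.7, 84.7, 91.7 and 74.8 TPM in livers labelled DKO and 64.1, 69.7, 64.9 and 76.2 TPM in control livers. Nr1d2 had 119, 92.0, 94.8 and 84.4 TPM in re-expression livers, 99.6, 94.5, 84.0 and 83.7 TPM in livers labelled DKO and 111, 108, 82.3 and 85.3 TPM in control livers. Neither gene was lower in livers labelled DKO beyond the spread between livers. A value summed over a whole gene does not check the loss of part of it, so the group is called by its label. Arntl, a target of REV-ERB repression that encodes the clock activator BMAL1, had 15.1 ± 1.09 TPM in re-expression livers, 19.8 ± 1.27 TPM in livers labelled DKO and 0.728 ± 0.205 TPM in control livers (SD, n = 4). All 10 hepatocyte markers examined were tested, with summed levels of 49601 to 54610 TPM in re-expression livers, 50323 to 53464 TPM in livers labelled DKO and 47233 to 52652 TPM in control livers. Of these, Ttr and Cps1 were called higher in livers labelled DKO than in control livers, 1.25-fold each, and 0 of 10 were called lower. Of 6 intestinal epithelium markers, Cdx2 was listed at 0 in every library and Vil1 and Muc2 had means under 1 TPM. Their summed levels were 135 to 178 TPM in re-expression livers, 136 to 148 TPM in livers labelled DKO and 112 to 162 TPM in control livers. Fabp2 made up most of these sums, with 109 ± 16.5 TPM in control livers (SD, n = 4).

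Of the 65 genes, 48 passed the filter of 1 TPM and 46 of these did so in every group, the others being Ugt1a8 and Ugt1a10, whose means were under 1 TPM in livers labelled DKO. The other 17 genes had means of at most 0.319 TPM, and 8 of them were listed at 0 in every library. Most of the unexpressed genes were SULTs: 12 of 19 were under the filter, among them Sult2a1, at 0 in every library, and Sult1e1, the estrogen sulfotransferase, with a mean of 0.0993 TPM. The highest levels belonged to Gstm1, a mu class GST, with a mean of 4863 TPM over the 12 livers, and to the microsomal Mgst1 with 2652 TPM. They were followed by the pi class Gstp1 with 1965 TPM, and by Ugt2b5 with 1816 TPM and Ugt2b36 with 1053 TPM, whose family glucuronidates steroids. In all, 26 genes had a mean over 100 TPM. Together the 65 genes took 2.11% of all TPM in re-expression livers, 2.04% in livers labelled DKO and 1.85% in control livers.

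**Figure D1:**
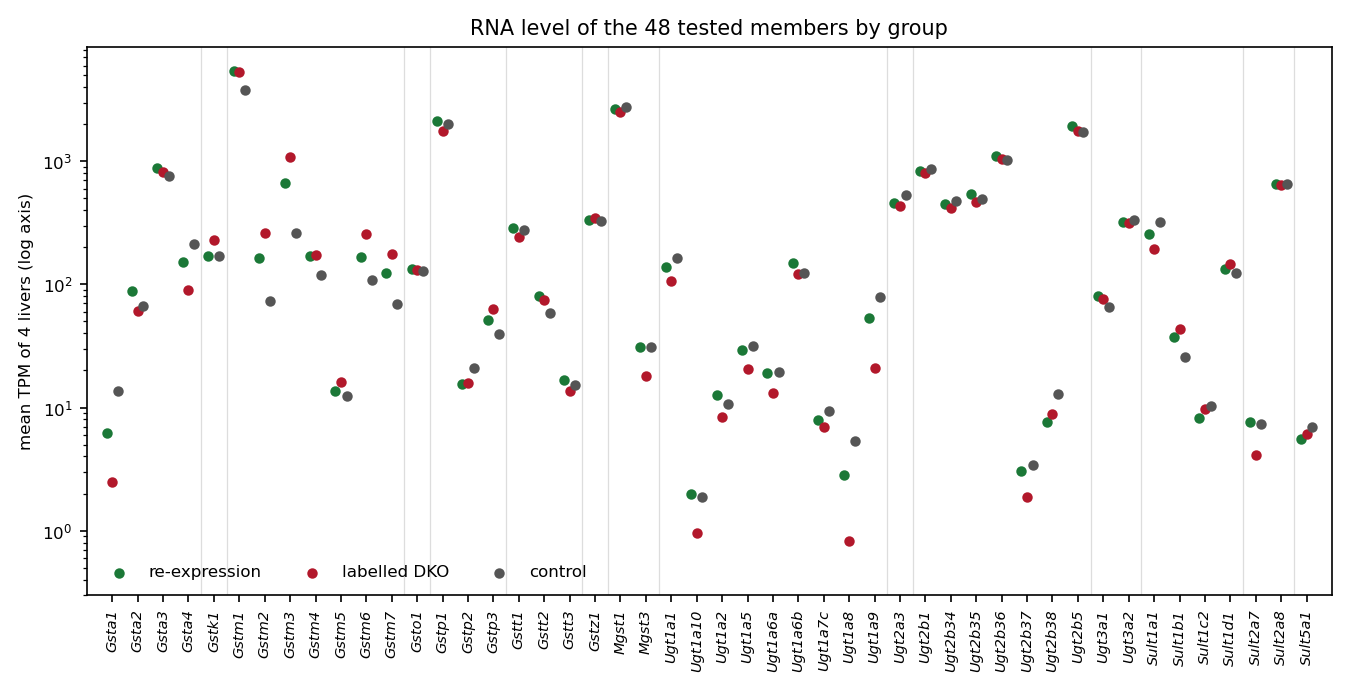
Mean TPM of 4 livers (vertical log axis) for each of the 48 tested conjugation genes, in re-expression livers (green), livers labelled DKO (red) and control livers (grey). Levels span from under 1 TPM for Ugt1a8 and Ugt1a10 in livers labelled DKO to 5463 TPM for Gstm1 in re-expression livers, and the means of livers labelled DKO and control livers are 3.57-fold apart for Gstm2, 4.10-fold for Gstm3 and 3.74-fold for Ugt1a9.

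Promoters of the genes, as 250 bases before to 50 bases after the start listed by RefSeq for GRCm38.p6, were searched on both strands for 4 motifs. These were the ROR element that REV-ERB binds (AANTN followed by GGTCA), the D-box bound by DBP, TEF, HLF and the repressor NFIL3 (TTANGTAA), the E-box of the clock activators (CACGTG) and the antioxidant response element of NRF2 (TGACNNNGC). N stands for any base, and TTANGTAA is a loose form of the D-box, whose stricter form has T or C at N. A promoter was found for 57 of the 65 genes. No ROR element and no E-box was in these windows, against 0.7% and 8.1% of the 27025 genes in the RefSeq table. A match to TTANGTAA was found for 3 of the 57 genes, that is 5.3%, against 2.7% of all genes. An antioxidant response element was found for 4 of them, that is 7.0%, against 14.0%. A match is only a run of letters, and no match says only that these letters are not in the window. The promoters that held a match and belonged to a called gene are printed below with those genes.

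Livers labelled DKO against control livers show how conjugation genes differ with the REV-ERBs labelled as knocked out. Most mu class GST genes rose: 6 of 7 were called higher, by 1.40-fold for Gstm1 to 4.10-fold for Gstm3, and the median difference of the 7 was 1.25 on the log2 scale. Of the 9 UGT1A genes 4 fell and 0 rose, with a median of -0.56, and those called were between 1.54-fold (Ugt1a1) and 6.54-fold lower (Ugt1a8, a gene of few reads) as ratios of mean TPM. Outside these groups Gstk1, Gstp3 and Sult1b1 rose, and Gsta4 and Sult1a1 fell. Of the 48 tested genes, 9 were called higher and 6 lower, in all 15 or 31.2%, where 5.33% of all tested genes were called, 2.99% higher and 2.34% lower. The median difference was -0.10 over the 48 genes and 0.00 over all tested genes. An unadjusted limma p under 0.05 was reached by 25 of the 48, against 18.4% of all tested genes. In 19 of the 48 the groups did not overlap, against 11.5% of all tested genes, with 9 higher (background 6.13%) and 10 lower (background 5.4%). Liver is a mixture of cells, and fewer cells of a type and less RNA per cell cannot be told apart here.

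The 7 mu class genes lie side by side on chromosome 3 of build mm10, between 107895821 (the start of Gstm5) and 108044894 (the end of Gstm4). Mu class enzymes conjugate aromatic electrophiles and epoxides. In order along the chromosome, the log2 differences were 0.34 for Gstm5, 1.34 for Gstm7, 1.25 for Gstm6, 1.99 for Gstm3, 1.82 for Gstm2, 0.50 for Gstm1 and 0.54 for Gstm4. The 4 largest thus belonged to adjacent genes in the middle of the cluster. Gstm5, the one gene of the cluster on the plus strand and the one with least RNA, had 16.1 ± 2.89 TPM in livers labelled DKO and 12.5 ± 2.34 TPM in control livers (SD, n = 4) and was not called (limma, adjusted p = 0.278).

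Gstm2 (107981702 to 107986453, minus strand) had 181, 134, 161 and 184 TPM in re-expression livers, 321, 257, 247 and 223 TPM in livers labelled DKO and 63.6, 87.1, 75.3 and 67.1 TPM in control livers. No 2 groups overlapped: livers labelled DKO were highest, re-expression livers in between and control livers lowest. It rose 3.57-fold in livers labelled DKO over control livers, by 1.82 ± 0.14 on the log2 scale (SE, limma, adjusted p = 2.01e-05). Gstm3 (107963696 to 107969283, minus strand) had 762, 462, 744 and 713 TPM in re-expression livers, 1726, 1038, 785 and 783 TPM in livers labelled DKO and 214, 372, 245 and 225 TPM in control livers. The order of the groups was that of Gstm2, but livers labelled DKO spread widely, with replicate 1 far above the rest. Its rise was 4.10-fold and 1.99 ± 0.27 on the log2 scale (SE, limma, adjusted p = 0.00139). Of the 50-base stretches of Gstm3 transcripts, 28.8% also occur in other genes, mainly the gene model Gm8834, so its level depends on how such reads were counted.

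Gstm7 (107926334 to 107931817, minus strand) had 131, 112, 115 and 138 TPM in re-expression livers, 194, 160, 181 and 176 TPM in livers labelled DKO and 60.3, 72.4, 70.7 and 75.7 TPM in control livers. The 3 groups stood clear of each other in the same order. Its rise of 1.34 ± 0.09 on the log2 scale (SE, limma, adjusted p = 1.03e-05) had the smallest adjusted p of the 48 tested genes, and 0.5% of its 50-base stretches occur elsewhere. Gstm6 (107938847 to 107943749, minus strand) had 202, 148, 130 and 187 TPM in re-expression livers, 273, 227, 265 and 262 TPM in livers labelled DKO and 87.0, 116, 101 and 128 TPM in control livers. Again no groups overlapped, although the lowest re-expression liver and the highest control liver lay next to each other. Gstm6 rose 2.37-fold, by 1.25 ± 0.15 on the log2 scale (SE, limma, adjusted p = 0.000645).

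The promoter of Gstm7 was the one among the 9 genes called higher that held an antioxidant response element, printed here in capitals on the strand of the gene, 5′ to 3′, from chr3:107931565-107931864 of GRCm38.p6 (minus strand). The GENCODE span of the gene reaches into this window to 107931817, so the match lies inside the gene as GENCODE draws it.
Gstm7: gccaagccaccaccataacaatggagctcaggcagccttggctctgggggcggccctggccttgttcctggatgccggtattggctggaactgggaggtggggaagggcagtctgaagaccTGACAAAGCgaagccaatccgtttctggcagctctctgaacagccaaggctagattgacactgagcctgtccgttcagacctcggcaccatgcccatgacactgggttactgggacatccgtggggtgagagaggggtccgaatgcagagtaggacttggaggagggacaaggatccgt
The same motif stood before Gsta3, Gstm5 and Mgst1, none of which was called, and before no gene called lower.

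Gstm1 (108012255 to 108017973, minus strand) had 5851, 5304, 5332 and 5363 TPM in re-expression livers, 6085, 5159, 4762 and 5312 TPM in livers labelled DKO and 3773, 4549, 2923 and 3939 TPM in control livers. Re-expression livers lay within the range of livers labelled DKO, and each of them was above every control liver. The rise in livers labelled DKO was 1.40-fold, 0.50 ± 0.12 on the log2 scale (SE, limma, adjusted p = 0.0366). Of the 50-base stretches of Gstm1 transcripts, 18.9% also occur in other genes, mainly Gstm2-ps1. Gstm4 (108040408 to 108044894, minus strand) had 203, 152, 158 and 166 TPM in re-expression livers, 199, 155, 156 and 183 TPM in livers labelled DKO and 119, 138, 95.7 and 124 TPM in control livers. Re-expression livers and livers labelled DKO overlapped, and both were above every control liver. The rise in livers labelled DKO was 0.54 ± 0.13 (SE, limma, adjusted p = 0.0335). Gstm1 was not called in 11 of 22 alternative settings, where its adjusted p was 0.0508 to 0.109. They include leaving out 1 liver, namely replicate 2, 3 or 4 of re-expression, replicate 1, 2 or 4 of DKO, or replicate 1, 3 or 4 of control. Gstm4 was not called in 7 of them (0.0523 to 0.0995), which include leaving out replicate 1 or 4 of DKO or replicate 1, 3 or 4 of control.

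Summed over the 7 genes, mu class RNA came to 7344, 6324, 6654 and 6764 TPM in re-expression livers, 8815, 7014, 6407 and 6955 TPM in livers labelled DKO and 4332, 5347, 3521 and 4573 TPM in control livers. Every control liver was below every other liver. Gstm1 supplied most of that sum in each group, 80.7% ± 2.12 in re-expression livers, 73.3% ± 3.10 in livers labelled DKO and 85.3% ± 1.75 in control livers (SD, n = 4). The share of Gstm3 was 9.85% ± 1.73 in re-expression livers, 14.5% ± 3.72 in livers labelled DKO and 5.95% ± 1.17 in control livers (SD, n = 4). These sums and shares are descriptions, with no test.

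The alpha class GST genes had 1 of 4 tested members called. Gsta4, whose enzyme detoxifies 4-hydroxynonenal from lipid peroxidation (chromosome 9, 78182774 to 78209349, plus strand), had 184, 155, 129 and 137 TPM in re-expression livers, 96.9, 78.9, 100 and 83.2 TPM in livers labelled DKO and 206, 259, 156 and 226 TPM in control livers. Livers labelled DKO were below all others, while re-expression and control livers overlapped. It fell 2.35-fold in livers labelled DKO, by 1.21 on the log2 scale (SE 0.16, limma, adjusted p = 0.001). Gsta3, the most abundant alpha gene, had 824 ± 53.2 TPM in livers labelled DKO and 761 ± 81.4 TPM in control livers (SD, n = 4) and was not called. Gsta2 had 60.8 ± 8.17 TPM in livers labelled DKO and 67.2 ± 25.1 TPM in control livers (SD, n = 4) and was not called either.

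Gsta1 stood at 4.53, 8.68, 3.11 and 8.39 TPM in re-expression livers, 2.55, 2.81, 2.88 and 1.78 TPM in livers labelled DKO and 13.2, 28.8, 3.02 and 9.07 TPM in control livers. Every liver labelled DKO was below every control liver, but control livers spread nearly over the whole range and the difference of -1.72 was not called (limma, adjusted p = 0.0758). The authors' deposited table gives Gsta1 a log2 fold change of -2.41 with an adjusted p of 0.000477. It rested on 3 to 5 reads in each liver labelled DKO, and 90.5% of its 50-base stretches also occur in other genes, chiefly the gene model Gm3776.

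Among the other GST classes, Gstk1 and Gstp3 rose. Gstk1, the kappa class enzyme of mitochondria and peroxisomes (chromosome 6, 42245935 to 42250447, plus strand), had 189, 167, 146 and 177 TPM in re-expression livers, 233, 225, 222 and 231 TPM in livers labelled DKO and 160, 183, 174 and 165 TPM in control livers. Livers labelled DKO stood apart above both other groups, which overlapped. The rise was small, 1.33-fold or 0.42 ± 0.08 on the log2 scale, with little spread (SE, limma, adjusted p = 0.0108). Gstp3, of the pi class (chromosome 19, 4057477 to 4059569, minus strand), had 40.5, 48.6, 55.8 and 60.5 TPM in re-expression livers, 74.0, 58.2, 60.8 and 60.1 TPM in livers labelled DKO and 31.1, 39.7, 37.4 and 48.4 TPM in control livers. Livers labelled DKO were all above the control livers, and re-expression livers overlapped both. Its rise of 0.69 ± 0.15 (SE, limma, adjusted p = 0.0206) was lost without control replicate 1, control replicate 3 or DKO replicate 1 (0.0513 to 0.0647).

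Gstp1, with most of the pi class RNA, had 1776 ± 115 TPM in livers labelled DKO and 2012 ± 311 TPM in control livers (SD, n = 4) and was not called, and 33.7% of its 50-base stretches occur in Gstp2 too. The microsomal Mgst1 had 2472, 2389, 2611 and 2543 TPM in livers labelled DKO and 2698, 2851, 2741 and 2831 TPM in control livers. The groups did not overlap, but the difference of -0.15 was not called (limma, adjusted p = 0.169). Mgst3 had 17.9 ± 6.79 TPM in livers labelled DKO and 30.8 ± 8.53 TPM in control livers (SD, n = 4), with overlapping groups and an adjusted p of 0.124, while the authors' deposited table gives it a log2 fold change of -0.77 with an adjusted p of 0.0344. Gsto1, an omega class reductase, was not called, with 132 ± 8.6 TPM in livers labelled DKO and 128 ± 7.31 TPM in control livers, with a 95% interval of the log2 difference from -0.11 to 0.20. Gstz1, the zeta class isomerase of tyrosine breakdown, was not called either, with 345 ± 11.4 TPM in livers labelled DKO and 325 ± 14.2 TPM in control livers, with an interval from -0.04 to 0.21. Gstt1, the theta class gene with most RNA, had 241 ± 12.7 TPM in livers labelled DKO and 276 ± 56.6 TPM in control livers (SD, n = 4). None of the 3 tested theta class genes was called, Gstt2 coming nearest with a difference of 0.36 (adjusted p = 0.08).

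The UGT1A genes share one locus on chromosome 1, where each gene has a first exon of its own and the remaining exons are common to all. Ugt1a1 is the bilirubin conjugating enzyme, and the other members take phenols and other small substrates. Ugt1a9 (88070800 to 88218997, plus strand) had 56.8, 52.8, 73.1 and 28.9 TPM in re-expression livers, 32.4, 18.8, 21.4 and 11.5 TPM in livers labelled DKO and 95.0, 88.0, 66.1 and 65.3 TPM in control livers. Livers labelled DKO were all below the control livers, and re-expression livers overlapped both groups. It fell by 1.92 on the log2 scale (SE 0.31, limma, adjusted p = 0.00433). Ugt1a1 (88211959 to 88218997, plus strand) had 165, 126, 137 and 128 TPM in re-expression livers, 105, 106, 111 and 105 TPM in livers labelled DKO and 176, 176, 151 and 158 TPM in control livers. Livers labelled DKO lay close together below all others. It fell 1.54-fold, by 0.62 (SE 0.09, adjusted p = 0.00207).

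Ugt1a5 (88166012 to 88218997, plus strand) had 31.2, 26.4, 27.8 and 31.5 TPM in re-expression livers, 22.5, 22.5, 18.7 and 17.9 TPM in livers labelled DKO and 29.7, 40.6, 29.4 and 27.4 TPM in control livers. Livers labelled DKO were again below both other groups. Its fall by 0.61 (SE 0.13, limma, adjusted p = 0.0191) was lost without DKO replicate 3 or 4 and with only the 8 libraries of the comparison in the fit (0.0527 to 0.0611). Ugt1a8 (88087813 to 88219004, plus strand) had 3.38, 1.01, 5.80 and 1.17 TPM in re-expression livers, 1.33, 0.629, 0.43 and 0.884 TPM in livers labelled DKO and 5.34, 2.54, 6.08 and 7.45 TPM in control livers. These levels rest on 5 to 30 reads per re-expression liver, 2 to 7 per liver labelled DKO and 13 to 33 per control liver. Its fall by 1.76 (SE 0.39, adjusted p = 0.025) did not pass after leaving out replicate 2, 3 or 4 of DKO or replicate 1, 3 or 4 of control (0.0608 to 0.0655). The size of that difference depended on the pseudocount, at -2.57 with a pseudocount of 0.1 and -0.81 with 5, while the authors' deposited table gives -2.71.

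Ugt1a2, Ugt1a6a, Ugt1a6b, Ugt1a7c and Ugt1a10 were not called. Ugt1a6a had 13.1 ± 3.62 TPM in livers labelled DKO and 19.4 ± 3.44 TPM in control livers (SD, n = 4), without overlap (limma, adjusted p = 0.152). Ugt1a6b, a phenol conjugating member, had 134, 126, 106 and 121 TPM in livers labelled DKO and 137, 132, 103 and 125 TPM in control livers, with overlapping groups and a log2 difference of -0.03 whose 95% interval ran from -0.26 to 0.20. Its share of UGT1A RNA was 40.5% ± 1.48 in livers labelled DKO and 27.8% ± 1.4 in control livers (SD, n = 4). The share of Ugt1a9 was 6.93% ± 2.5 in livers labelled DKO and 17.5% ± 1.67 in control livers (SD, n = 4). The summed level of the 9 genes was 466, 377, 436 and 382 TPM in re-expression livers, 327, 309, 277 and 287 TPM in livers labelled DKO and 493, 479, 391 and 422 TPM in control livers. Livers labelled DKO had the lowest sums, and the other groups overlapped. The common exons make up 58.9% of the exon bases of Ugt1a1 and 60.6% of those of Ugt1a6b, and the gene model Gm20528 overlaps on the other strand, 41.5% of the exon bases of Ugt1a1. The labels do not say how the authors' counting treated shared exons or strand, so levels of single UGT1A genes are uncertain. Ugt1a10, with 58.1% of its exon bases shared, stood at 0.632 to 2.43 TPM over the 12 livers, far under the level of Ugt1a1 in each of them.

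Ugt1a9 was 1 of 2 genes called lower whose promoter held a match to TTANGTAA, of 5 with a promoter in the table. It is shown from chr1:88070529-88070828 of GRCm38.p6 (plus strand), 5′ to 3′, with the match, TTAAGTAA, in capitals.
Ugt1a9: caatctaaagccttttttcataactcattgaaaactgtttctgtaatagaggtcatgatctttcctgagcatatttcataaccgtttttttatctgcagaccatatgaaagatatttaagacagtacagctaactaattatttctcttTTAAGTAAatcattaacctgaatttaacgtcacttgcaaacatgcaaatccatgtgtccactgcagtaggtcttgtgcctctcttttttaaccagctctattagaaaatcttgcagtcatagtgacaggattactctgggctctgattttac
None of the 9 genes called higher held one, and the third match among the 57 promoters stood before Ugt2b1, which was not called. Of the factors named for the D-box, Nfil3 had 134, 119, 134 and 125 TPM in livers labelled DKO and 28.7, 22.1, 26.5 and 30.3 TPM in control livers. Its rise was 2.22 ± 0.09 (SE, limma, adjusted p = 8.46e-08). Tef fell by 0.35 (limma, adjusted p = 0.014), with 94.7 ± 4.87 TPM in livers labelled DKO and 121 ± 9.42 TPM in control livers. Dbp and Hlf were not called, with differences of -0.19 and 0.04. Whether any of these factors acts on the conjugation genes was not tested.

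The UGT2B genes, which conjugate steroids and bile acids, carry most UGT RNA and had 0 of 7 tested members called, also 0 at an unadjusted p under 0.05. Ugt2b5 (chromosome 5, 87124960 to 87140318, minus strand) had 1925, 1735, 1633 and 1795 TPM in livers labelled DKO and 1804, 2011, 1455 and 1650 TPM in control livers. The groups overlapped, and the 95% interval of the log2 difference ran from -0.21 to 0.29. Of the 50-base stretches of Ugt2b5 transcripts, 41.7% also occur in other genes, mainly Ugt2b38, so its level depends on how such reads were counted. Ugt2b34 had 414 ± 24.8 TPM in livers labelled DKO and 477 ± 62.2 TPM in control livers, and Ugt2b35 had 463 ± 24.7 TPM in livers labelled DKO and 490 ± 116 TPM in control livers (SD, n = 4). The summed level of the 7 genes was 4498 ± 219 TPM in livers labelled DKO and 4602 ± 654 TPM in control livers (SD, n = 4). Ugt2a3 had 434 ± 42.2 TPM in livers labelled DKO and 534 ± 85.6 TPM in control livers (SD, n = 4), with an unadjusted limma p of 0.0251 and an adjusted p of 0.191. Ugt3a1 and Ugt3a2, which use other sugars than glucuronate, were not called either, with differences of 0.20 and -0.09.

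Of the 7 tested SULT genes 1 fell and 1 rose. Sult1a1, which sulfates phenols (chromosome 7, 126672865 to 126676432, minus strand), had 206, 281, 309 and 240 TPM in re-expression livers, 221, 230, 161 and 163 TPM in livers labelled DKO and 344, 323, 338 and 286 TPM in control livers. Every control liver was above every liver labelled DKO, and re-expression livers spread over both ranges. It fell 1.67-fold, by 0.75 (SE 0.15, limma, adjusted p = 0.0139). Sult1b1, which sulfates phenols and thyroid hormones (chromosome 5, 87513339 to 87538195, minus strand), had 33.2, 43.7, 31.0 and 42.0 TPM in re-expression livers, 37.4, 48.3, 48.8 and 37.9 TPM in livers labelled DKO and 22.3, 28.4, 22.1 and 29.8 TPM in control livers. Control livers were below both other groups, which overlapped. Its rise of 0.73 ± 0.15 (SE, limma, adjusted p = 0.0162) was lost without DKO replicate 2 (adjusted p = 0.0507). Sult1d1, which takes catecholamines, had 146 ± 15.8 TPM in livers labelled DKO and 124 ± 8.88 TPM in control livers (SD, n = 4). Sult2a8, a bile acid sulfotransferase, had 643 ± 58.7 TPM in livers labelled DKO and 651 ± 51.4 TPM in control livers (SD, n = 4). Neither was called, nor were Sult1c2, Sult2a7 and Sult5a1.

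The promoter of Sult1a1 held the other match to TTANGTAA among the genes called lower. The match, TTAGGTAA, is in capitals below, from chr7:126676369-126676668 of GRCm38.p6 (minus strand), 5′ to 3′.
Sult1a1: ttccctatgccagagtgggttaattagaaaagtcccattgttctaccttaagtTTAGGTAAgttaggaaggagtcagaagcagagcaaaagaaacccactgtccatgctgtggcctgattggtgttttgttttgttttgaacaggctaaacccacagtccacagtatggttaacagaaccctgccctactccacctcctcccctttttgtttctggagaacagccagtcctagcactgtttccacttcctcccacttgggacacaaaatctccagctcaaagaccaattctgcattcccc

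**Figure D2:**
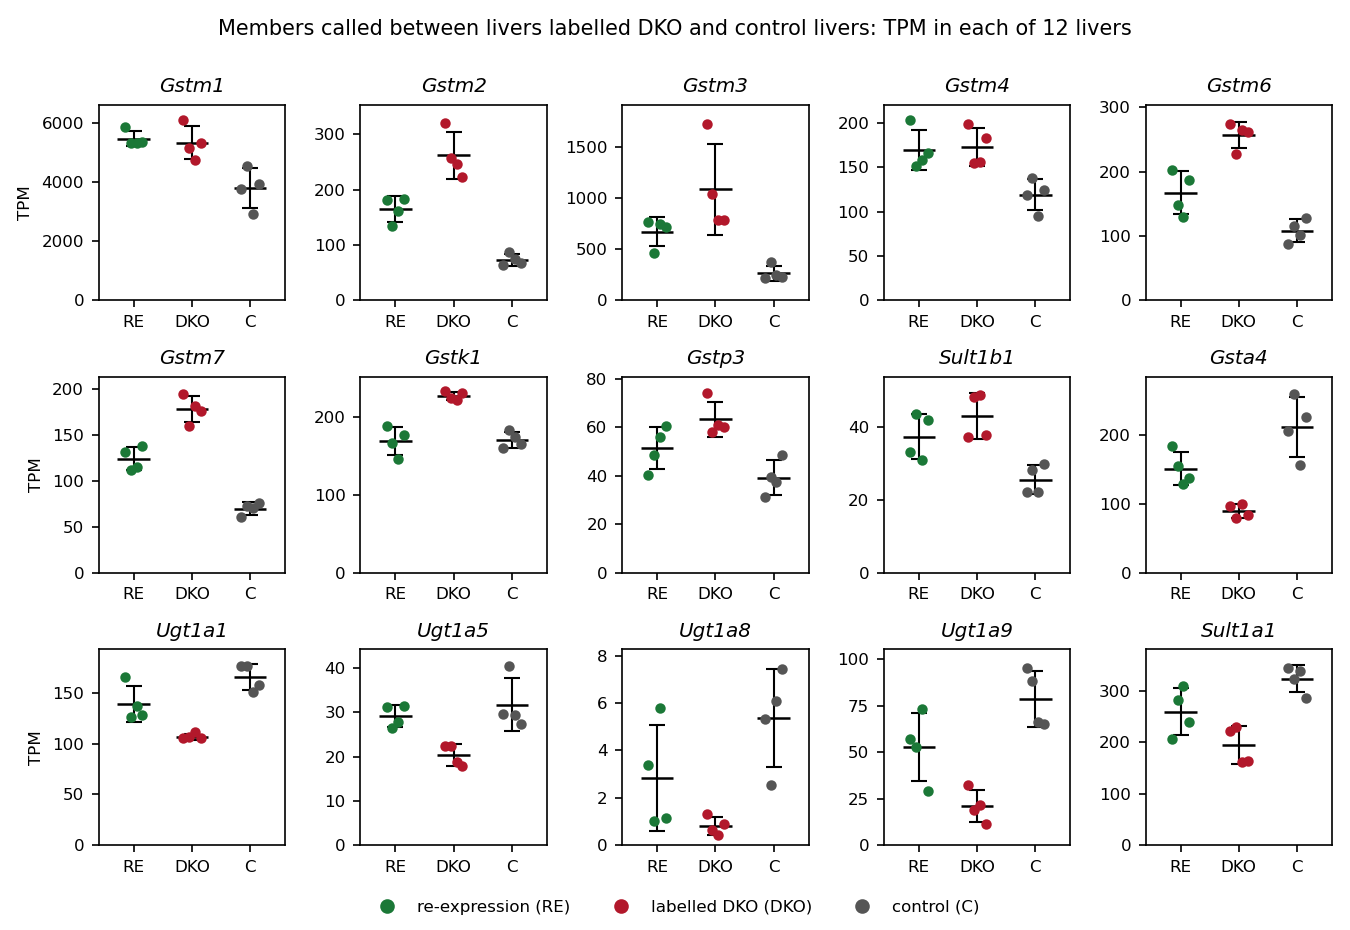
TPM (vertical axes, from 0) in each of 12 livers for the 15 genes called in livers labelled DKO against control. Points are livers, horizontal lines group means and bars 1 SD (n = 4), with re-expression livers (RE) left, livers labelled DKO in the middle and control livers (C) right. The 9 genes called higher come first, and Gsta4, Ugt1a1, Ugt1a5, Ugt1a8, Ugt1a9 and Sult1a1 lie lower in livers labelled DKO.

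The authors' deposited table, in the numbered comparison whose fold changes follow those of livers labelled DKO over control livers (Pearson's r of 0.936 across genes, which are not independent replicates), puts the same 9 genes higher at an adjusted p under 0.05. It puts 8 lower, the 6 above with Gsta1 and Mgst3, out of 48 genes with an adjusted p, where 9.19% of its 16343 genes are under that threshold.

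Genes that supply or serve the enzymes were mostly not called. Of 9 tested genes of glutathione supply 1 rose and 1 fell: Cbs, which opens the route from homocysteine to cysteine, rose to 291 ± 21.8 TPM in livers labelled DKO, against 146 ± 18.1 TPM in control livers (SD, n = 4), and Ggt6, of the family that breaks glutathione down, was 1.51-fold lower. Gclc, the rate-limiting enzyme of glutathione synthesis, had 461 ± 70.4 TPM in livers labelled DKO and 305 ± 70.4 TPM in control livers and was not called (limma, adjusted p = 0.102). None of the 5 tested genes of glucuronate supply, 8 of sulfate supply and 8 of conjugate export was called. The same held for the 14 tested NRF2 targets, with a median difference of -0.01, and for the 4 tested targets of the dioxin receptor AhR.

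Of the 15 xenobiotic receptors and sensors 0 rose and 3 fell. Ppara, the fatty acid receptor, had 160 ± 8.76 TPM in livers labelled DKO and 256 ± 8.5 TPM in control livers (SD, n = 4). Nr1h4, the bile acid receptor FXR, had 207 ± 5.99 TPM in livers labelled DKO and 299 ± 46.3 TPM in control livers, and the third was Tef. The RNA of CAR, PXR and NRF2 was not called. Nr1i3 had 65.9 ± 3.16 TPM in livers labelled DKO and 64.8 ± 5.05 TPM in control livers, and Nr1i2 had 111 ± 9.47 TPM in livers labelled DKO and 116 ± 3.21 TPM in control livers (SD, n = 4). Nfe2l2 had 79.2 ± 9.15 TPM in livers labelled DKO and 89.8 ± 19.0 TPM in control livers (SD, n = 4). Of 13 tested CAR and PXR targets 4 rose and 1 fell. The P450 genes Cyp2a5, Cyp2c55 and Cyp2c37 rose 2.01-fold, 4.15-fold and 1.77-fold, and the transporter gene Slco1a4, named after its values were seen, rose 1.71-fold. Por, the electron donor of P450 enzymes, fell 1.62-fold.

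Markers of other cells moved with these differences in part. Of 7 stellate cell markers 3 were called higher in livers labelled DKO (Lrat, Reln and Dcn) and none was at 0, with summed levels of 210 to 237 TPM in livers labelled DKO and 131 to 176 TPM in control livers. The cholangiocyte marker Sox9 rose, 1 of 4 tested, but the sums of that list overlapped, at 76.7 to 86.1 TPM in livers labelled DKO and 74.5 to 105 TPM in control livers. No marker of 7 for Kupffer cells or of 7 for sinusoidal endothelium was called. Of 12 genes of pericentral hepatocytes 3 rose (Oat, Rgn and Lect2), and of 11 periportal ones 2 rose (Ass1 and Cps1). The intestinal marker Lgals4, 1 of 3 tested, fell to 12.6 ± 4.83 TPM in livers labelled DKO, against 23.9 ± 5.19 TPM in control livers (SD, n = 4). Some conjugation genes differ between male and female mouse livers, so sex-biased genes were read too. Of 12 female-biased genes only 3 were tested, with a median difference of 0.76, and Cyp2a4 rose. Summed levels of the 12 were 45.2 to 320 TPM in re-expression livers, 89.9 to 596 TPM in livers labelled DKO and 28.4 to 87.6 TPM in control livers. Of 10 male-biased genes Elovl3 rose and Cyp4a12a and Serpina1e fell. The male-biased sums overlapped, at 9916 to 11935 TPM in livers labelled DKO and 9298 to 15860 TPM in control livers. Of 5 sex chromosome genes 4 were tested and 0 called. Their summed levels were 124 to 182 TPM in re-expression livers, 135 to 151 TPM in livers labelled DKO and 122 to 172 TPM in control livers. Xist, named after its values were seen, had a mean under 1 TPM, and the others in that list are on the Y chromosome. The part of cell makeup, zonation and sex-biased expression in the differences of the conjugation genes was not tested.

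Re-expression livers were then set against livers labelled DKO. By the titles both carry the double knockout, with REV-ERBalpha-WT in the first and YFP in the second. The column names give Cre for the second only, so its part cannot be told apart from that of the receptor. No conjugation gene was called by limma, in either direction, where 0.0724% of all tested genes were, 0.0278% higher and 0.0446% lower. An unadjusted p under 0.05 was reached by 19 of the 48, against 6.19% of all tested genes. In 14 of the 48 the groups did not overlap, against 4.25% of all tested genes, with re-expression livers higher in 9 (background 2.09%) and lower in 5 (background 2.16%). The median difference was 0.10 over the 48 genes and 0.01 over all tested genes. The smallest adjusted p belonged to Gstm7 (0.102), Gstk1 (0.103), Gstm2 (0.162) and Gsta4 (0.173).

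Within the mu class, Gstm2 had 165 ± 22.9 TPM in re-expression livers and 262 ± 41.7 TPM in livers labelled DKO (SD, n = 4), a difference of -0.66 on the log2 scale with a 95% interval from -0.96 to -0.36. Gstm7 had 124 ± 12.5 TPM in re-expression livers and 178 ± 13.8 TPM in livers labelled DKO, a difference of -0.52 with an interval from -0.73 to -0.31. Gstm6 and Gstm3 differed by -0.64 each, with intervals from -0.97 to -0.31 for Gstm6 and from -1.22 to -0.05 for Gstm3. In these 4 genes each re-expression liver was below each liver labelled DKO. Gstm1 differed by 0.04 (interval -0.23 to 0.31) and Gstm4 by -0.03 (interval -0.31 to 0.25), with the groups overlapping in both. For Gstk1 the difference was -0.43, with 170 ± 18.3 TPM in re-expression livers and 228 ± 4.91 TPM in livers labelled DKO (SD, n = 4) and no overlap.

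In the genes that were lower in livers labelled DKO, Gsta4 had 151 ± 24.1 TPM in re-expression livers and 89.9 ± 10.4 TPM in livers labelled DKO (SD, n = 4), a difference of 0.74 with a 95% interval from 0.40 to 1.08. Ugt1a9 had 52.9 ± 18.2 TPM in re-expression livers and 21.0 ± 8.66 TPM in livers labelled DKO, a difference of 1.30 (interval 0.62 to 1.98, limma, adjusted p = 0.236), and the groups overlapped. Ugt1a1 differed by 0.37 (adjusted p = 0.259) and Ugt1a5 by 0.50 (adjusted p = 0.299), both without overlap. Of the 9 UGT1A genes 8 had an unadjusted p under 0.05, with differences from 0.19 to 1.30 over the 9, and a median of 0.54. Sult1a1 differed by 0.42 with overlapping groups (adjusted p = 0.599). This comparison and that of livers labelled DKO against control share the livers labelled DKO, so they are not independent. Genes picked as high or low in those livers are tilted to the opposite direction here. The values are therefore only set side by side.

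The authors' deposited table, in the comparison that follows re-expression over DKO (r of 0.916 across genes), has 5 of 47 conjugation genes under an adjusted p of 0.05, where 0.495% of its 14539 genes are. Gsta4 and Ugt1a9 are higher there, with log2 fold changes of 0.73 and 1.31 and adjusted p of 0.0092 and 0.000527 in the authors' deposited table. Gstk1, Gstm7 and Gstm6 are lower, with -0.44, -0.53 and -0.64 and adjusted p of 0.000752, 0.00956 and 0.0117 in the authors' deposited table. On recovered reads, voom called Gstk1, Gstm2 and Gstm7 lower (adjusted p 0.0271 to 0.0478 over the calls gained), and with sample quality weights Gstk1 and Gstm7 were called lower. The call of these genes thus rests on the test used.

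**Figure D3:**
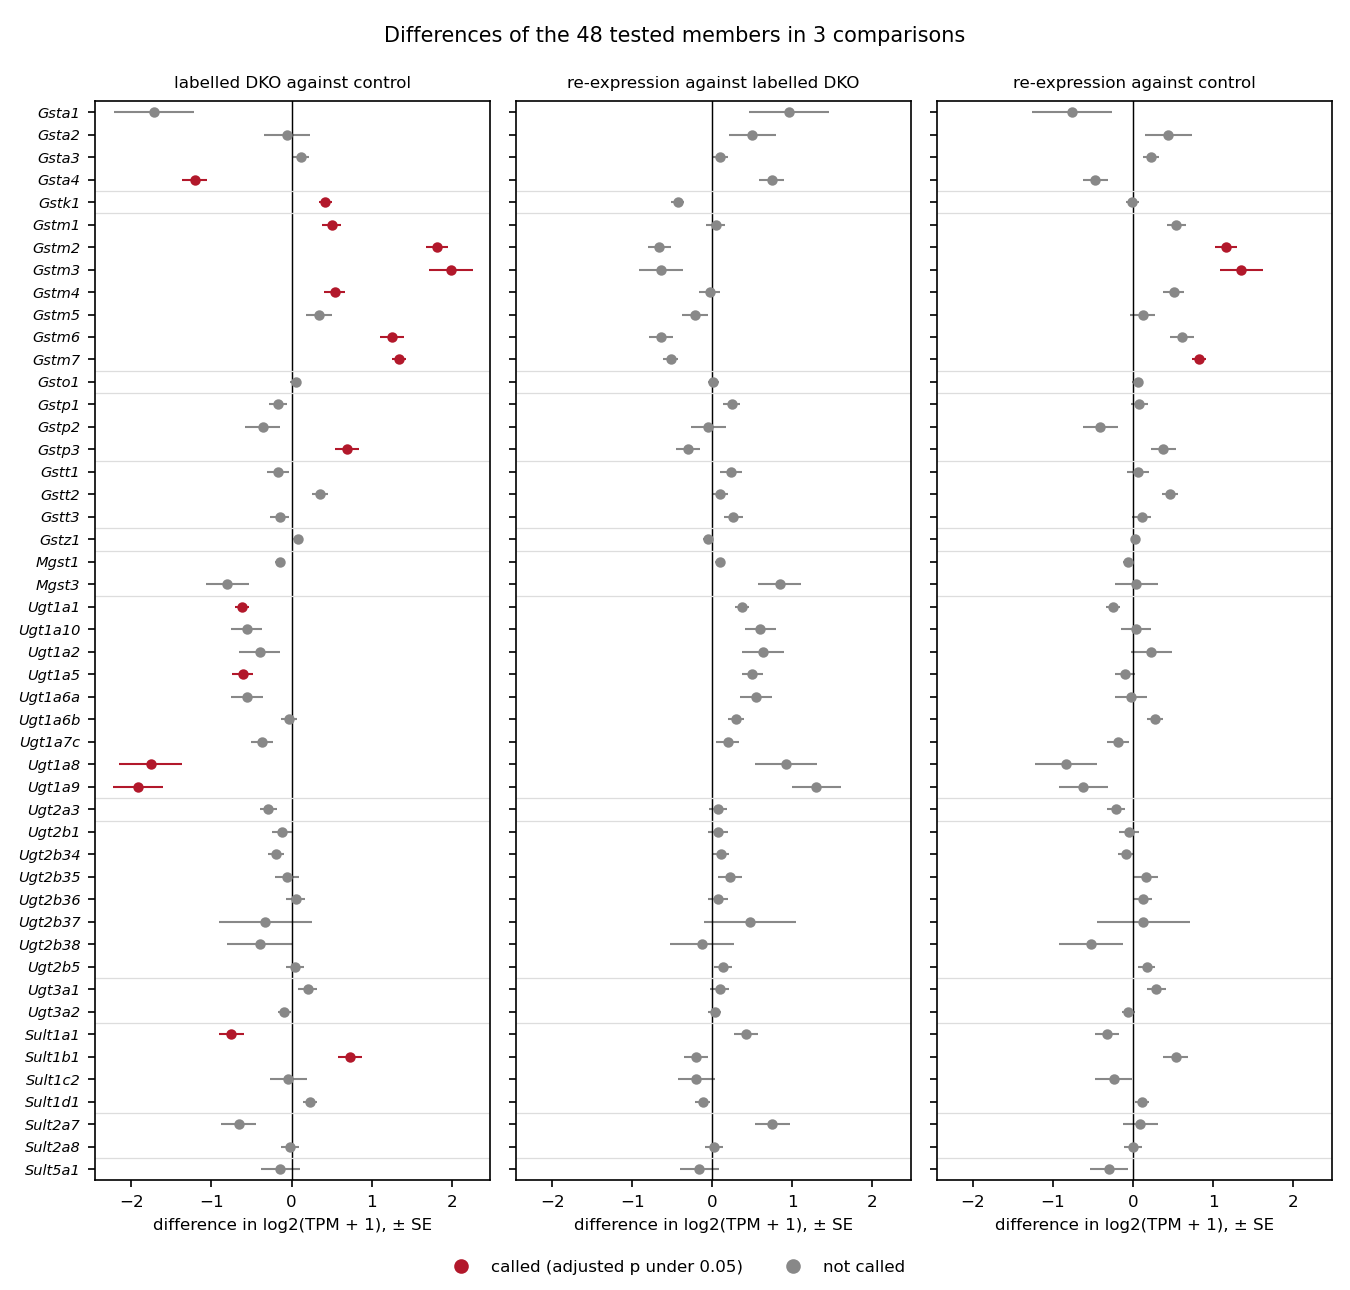
Difference in log2(TPM + 1) with its SE (horizontal axes) of the 48 tested genes, for livers labelled DKO against control (left), re-expression against livers labelled DKO (middle) and re-expression against control (right). Red marks genes called at an adjusted p under 0.05: 15 on the left, 0 in the middle and 3, all mu class, on the right.

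Re-expression livers against control livers show where the genes stood with REV-ERBalpha re-expressed and REV-ERBbeta still labelled as knocked out. Nr1d1 RNA was above its control level, as given above. Of 6 ROR element clock genes, 5 were still called higher than in control livers and 1 lower. Their median difference was 1.71, against 2.34 for livers labelled DKO over control livers. The 3 conjugation genes called were Gstm7, Gstm2 and Gstm3, all mu class and all higher. They were 6.25% of the 48, against 1.82% of all tested genes. Of all tested genes 1.16% were called higher and 0.663% lower, and no conjugation gene was called lower by limma. The median difference was 0.06 over the 48 genes, 0.61 over the 7 mu class genes and 0.01 over all tested genes. In 8 of the 48 the groups did not overlap, against 7.28% of all tested genes, and re-expression livers were the higher in all 8, against 4.29% of all tested genes in that direction. Gstm2 rose 2.25-fold, by 1.16 ± 0.14 (SE, limma, adjusted p = 0.00115), and Gstm7 rose 1.78-fold, by 0.82 ± 0.09 (SE, limma, adjusted p = 0.000912). Gstm3 rose 2.54-fold, by 1.35 ± 0.27 (SE, limma, adjusted p = 0.0264). Gstm3 was not called in 8 of 22 alternative settings (adjusted p 0.065 to 0.0802), which include leaving out replicate 1, 3 or 4 of re-expression or replicate 1, 3 or 4 of control.

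Of the other mu class genes, 3 missed the threshold with no overlap between the groups. Gstm1 differed by 0.54 (adjusted p = 0.0501), Gstm6 by 0.61 (adjusted p = 0.0678) and Gstm4 by 0.51 (adjusted p = 0.0789). Gstm1 was called in 6 of 22 alternatives, Gstm6 in 3 and Gstm4 in 2. The theta class Gstt2 had 80.3 ± 5.39 TPM in re-expression livers and 58.1 ± 6.25 TPM in control livers (SD, n = 4), without overlap, and was not called (adjusted p = 0.051). No UGT or SULT gene was called. Ugt1a9 differed by -0.62 with a 95% interval from -1.30 to 0.06, Gsta4 by -0.47 with an interval from -0.81 to -0.13 and Sult1a1 by -0.33 with an interval from -0.65 to -0.01. Gstk1 had 170 ± 18.3 TPM in re-expression livers and 171 ± 10 TPM in control livers (SD, n = 4), and its interval ran from -0.19 to 0.16.

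Among the genes around the enzymes, Nr1i3, the receptor CAR, had 78.8, 80.5, 83.1 and 80.6 TPM in re-expression livers and 68.6, 60.5, 60.4 and 69.7 TPM in control livers. All re-expression livers were above all control livers, and the gene rose by 0.32 ± 0.07 (SE, limma, adjusted p = 0.036). Of the 14 tested NRF2 targets 2 rose in re-expression livers: Gclc, which is also on the list of glutathione supply, with 548 ± 110 TPM in re-expression livers and 305 ± 70.4 TPM in control livers, and the epoxide hydrolase gene Ephx1 with 1566 ± 115 TPM in re-expression livers and 1053 ± 209 TPM in control livers (SD, n = 4). The CAR and PXR target Cyp2a5 rose 1.61-fold, 1 of 13 tested. Of the stellate cell markers Reln was called higher, 1 of 7, with list sums of 173 to 222 TPM in re-expression livers and 131 to 176 TPM in control livers. Sox9, 1 of 4 tested cholangiocyte markers, was called higher too, with 6.58 ± 1.19 TPM in re-expression livers and 2.04 ± 0.589 TPM in control livers (SD, n = 4). So was Oat, 1 of 12 pericentral genes, with 1004 ± 77.5 TPM in re-expression livers and 659 ± 108 TPM in control livers (SD, n = 4). The part of these in the differences of the conjugation genes was not tested.

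Over whole subfamilies, the sum of all 65 genes was 21068 ± 1410 TPM in re-expression livers, 20357 ± 1279 TPM in livers labelled DKO and 18486 ± 2016 TPM in control livers (SD, n = 4), with overlapping groups. The GST sum was 13798 ± 733 TPM in re-expression livers, 13687 ± 1129 TPM in livers labelled DKO and 11354 ± 1246 TPM in control livers. The UGT sum was 6163 ± 704 TPM in re-expression livers, 5624 ± 184 TPM in livers labelled DKO and 5984 ± 794 TPM in control livers. The SULT sum was 1107 ± 79.8 TPM in re-expression livers, 1046 ± 86.2 TPM in livers labelled DKO and 1148 ± 49.2 TPM in control livers (SD, n = 4 for each). The Gstp sum was 2174 ± 180 TPM in re-expression livers, 1855 ± 119 TPM in livers labelled DKO and 2072 ± 321 TPM in control livers, and the Mgst sum was 2702 ± 101 TPM in re-expression livers, 2522 ± 91.8 TPM in livers labelled DKO and 2811 ± 75.5 TPM in control livers (SD, n = 4). These sums were not tested.

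**Figure D4:**
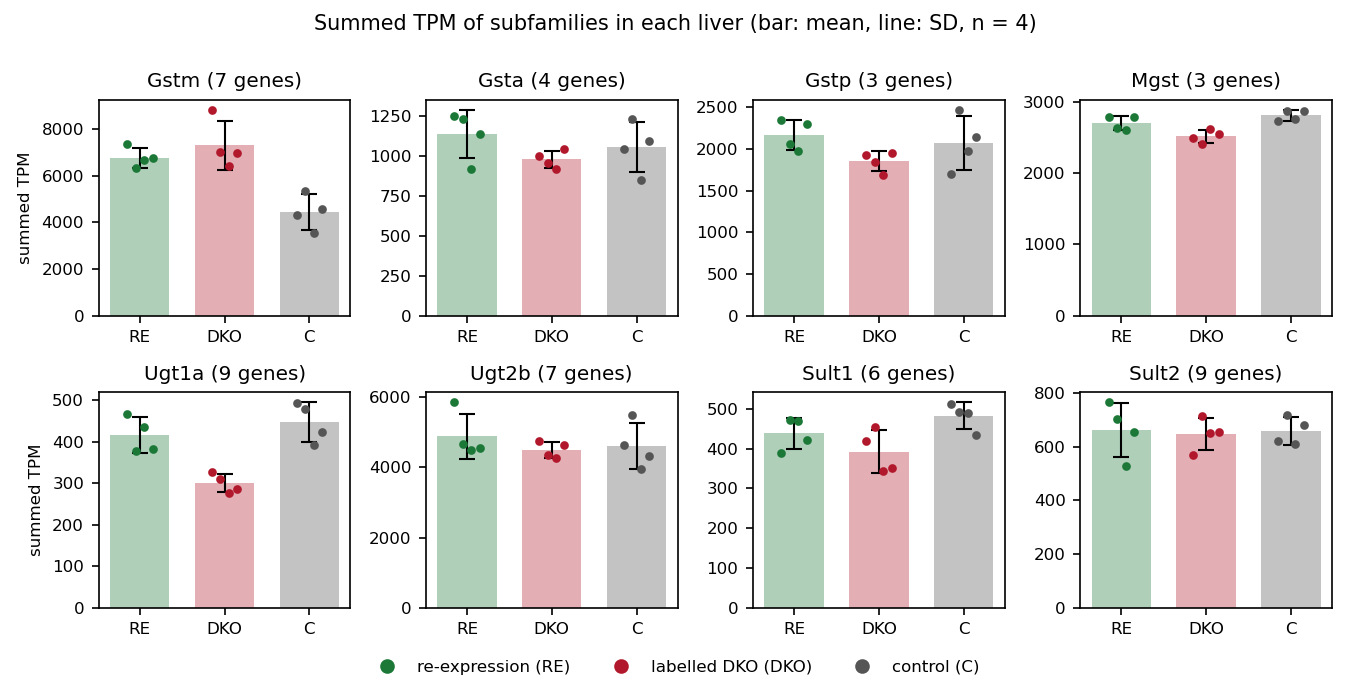
Summed TPM (vertical axes, from 0) of 8 subfamilies in each liver, with bars for the mean and lines for 1 SD (n = 4), for re-expression livers (RE), livers labelled DKO and control livers (C). The Gstm sum is lowest in all 4 control livers and the Ugt1a sum lowest in all 4 livers labelled DKO, while the Ugt2b and Sult2 sums overlap in all groups.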

How the data were processed

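RNA-seq libraries of 12 mouse livers, 4 in each of 3 groups, were made from total RNA with a stranded kit, per the labels' protocols. The submitters' processing notes name bcl2fastq 2.17, STAR 2.7.1a, SAMtools 1.9, featureCounts 2.0.1, DESeq2 1.36.0 and the build mm10, with no role or strand setting. The authors deposited TPM for each gene and liver, with the gene length. The log2 fold changes and p-values printed as the authors' come from 3 numbered comparisons that the authors deposited without group names. Comparisons 1 and 2 were matched to groups by their fold changes, and comparison 3, which matched none, was not used.

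TPM multiplied by the length less 199 bases fell on whole multiples of 1 step per library for 100.0% of values (within 0.01 read), which gave the reads per gene. Differences were tested with limma 3.58.1 in R 4.3.3 on log2(TPM + 1), with a trend in the prior variance, for genes with a mean of at least 1 TPM, with 3 group means over 12 libraries (9 residual degrees of freedom). Differences and SE are on that scale, which understates changes of low genes, while folds are ratios of group mean TPM. Tests were two-sided, with Benjamini-Hochberg adjustment over all tested genes. The labels name no batch and do not say how the livers of a group relate to each other. Replicate pairs differed by more than sampling noise (chi-square per degree of freedom 4.08 to 13.5), so each liver was counted once. On simulated counts for 17943 genes in the DKO and control layout, 47% of 2-fold and 93% of 4-fold changes were called, with 10 of 17746 unchanged genes. The simulation gave every gene the same dispersion of 0.03, not fitted to these livers, and changed only genes with at least 10 mean reads. Its rates are therefore not the power for these data or for low genes.

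Other pseudocounts, filters, scalings, libraries in the fit, a replicate block, sample weights, voom on the recovered reads and leaving out each liver were tried. Exon positions and shared 50-base stretches come from GENCODE M21 on mm10, and promoters from RefSeq on GRCm38.p6. The members and lists were chosen with earlier results of these data known. The genes that could be named were members called in any comparison or over 1 TPM in any group, receptors and sensors and, from each other list, up to 4 called genes by smallest p. Figures were drawn with matplotlib 3.10.9.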

Additional observations from a re-analysis of the deposited data

Results flagged for a closer look

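A single liver stood far from the other 3 of its group in 4 of the 78 sets of livers examined, that is 26 conjugation genes in 3 groups each. Chance alone marks about 1 in 20 such sets. In re-expression livers, Ugt2b5 had 2350 TPM in replicate 1 and 1793 to 1842 TPM in the other livers, and the gap took 0.913 of the whole range. Gstm1 had 5851 TPM in the same liver and 5304 to 5363 TPM in the other re-expression livers, with a gap of 0.891 of the range. Gstm3 had 462 TPM in re-expression replicate 2 and 713 to 762 TPM in the others, with a gap of 0.837 of the range. In livers labelled DKO, Gstp3 had 74.0 TPM in replicate 1 and 58.2 to 60.8 TPM in the others, with a gap of 0.833 of the range.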

How the results depend on the processing

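Over 22 alternatives, 9 of the 15 conjugation genes called in livers labelled DKO against control livers kept their call in every alternative that tested them, as did Gstm2 and Gstm7 in re-expression livers against control livers. The genes that did not are given with their values in the report. Over all genes, 958 were called in livers labelled DKO against control. In re-expression livers 13 were called against livers labelled DKO, and 327 against control. With only the 8 libraries of a comparison in the fit these counts were 559, 20 and 162 in the same order of comparisons. With voom on recovered reads they were 1224, 34 and 537, and re-expression livers had 3 conjugation genes called lower against livers labelled DKO, and 7 called higher against control. Sample quality weights gave 36 genes for re-expression livers against livers labelled DKO, 2 of them conjugation genes that were lower. Against control, re-expression livers had 6 conjugation genes called higher at a mean of at least 5 TPM, 5 with size factors, 5 with quantile normalization, and 1 called lower with no filter, against 3 higher and 0 lower. Leaving out 1 liver gave 573 to 922 genes for livers labelled DKO against control (6 to 9 conjugation genes higher, 4 to 7 lower). The counts were 637 without control replicate 1, and 600, 623 and 573 without DKO replicate 1, 2 or 4. For re-expression livers it gave 5 to 15 genes against livers labelled DKO, and 175 to 332 against control (2 to 4 conjugation genes higher). The count against livers labelled DKO was 7, 5, 7 and 6 without DKO replicate 1, 2, 3 or 4 and 6 and 7 without re-expression replicate 3 or 4, and the count against control was 215 and 175 without re-expression replicate 2 or 4. Of the 15 genes followed, 4 had a difference near 0 whose sign turned in some alternative. In re-expression livers against livers labelled DKO, Gstm1 was at -0.01 and Gstm4 at 0.01 with quantile normalization, and leaving out 1 liver gave -0.01 to 0.11 for Gstm1 and -0.12 to 0.04 for Gstm4. In re-expression livers against control, leaving out 1 liver gave -0.07 to 0.06 for Gstk1 and -0.17 to 0.02 for Ugt1a5. The cause was not tested. Low genes such as Ugt1a8 and Gsta1 rest on few reads, where counting error is large.

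With the replicate number as a replicate block, 778 genes were called in livers labelled DKO against control (9 conjugation genes higher and 6 lower). For re-expression livers it called 8 genes against livers labelled DKO, and 209 against control (2 conjugation genes higher and 0 lower). Gstm3 was not called against control with this block. Same-numbered livers correlated at -0.069 to 0.137 over 12 pairs, 1 of them over 0.1, and 6 of 12 livers correlated best with a liver of their own number. Control and re-expression livers of the same number stood at 0.137, 0.038, 0.07 and 0.088, the best match of each control liver. Same-numbered pairs with a liver labelled DKO were all negative (-0.069 to -0.021). The labels name no pairing, and the main fit used none. These values do not settle whether control and re-expression livers were paired.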

Other observations

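In some single livers many conjugation genes were the highest or the lowest of their group, and other livers were less extreme. DKO replicate 2, for example, was the highest in 10 of the 48 tested genes and the lowest in 8. Among control livers, replicate 3 was the lowest in 25 of the 48 tested genes and the highest in 2, while replicate 2 was the highest in 27 and the lowest in 2. Over all 17957 tested genes, control replicate 3 was the lowest in 34.8% and the highest in 13.9%, and control replicate 2 was the highest in 29.1% and the lowest in 15.3%. Among re-expression livers, replicate 1 was the highest in 24 of the 48 genes, against 38.7% of all tested genes. Among livers labelled DKO, replicate 1 was the highest in 21 of the 48, against 25.6% of all tested genes, and replicate 3 was the lowest in 21, against 27.1%. These counts are descriptions with no test.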
